A study of Mus musculus with 9 samples.

Results

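The 10 genes described here act directly on the small GTPase RAS, or on the signals that reach it, in T cells. They were taken by gene symbol from the 37022 mouse genes with a row in the deposited tables. They comprise 2 exchange factors that load RAS with GTP (Rasgrp1, Sos1), 2 diacylglycerol kinases that remove the lipid signal for Rasgrp1 (Dgka, Dgkz), 5 GTPase-activating proteins that switch RAS-family proteins off (Rasa1, Rasa2, Rasa3, Rasal3, Nf1) and the ubiquitin ligase gene Cblb. All 10 had a gene-body row and passed the filter on low signal there.

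Newly made RNA was followed in CD8+ T cells of the mouse, the cytotoxic T lymphocytes, by feeding the cells 0.2 mM of the uridine analogue 5-ethynyl uridine for 30 minutes and capturing the RNA that had taken it up. The cells were stimulated acutely (Acute), chronically (Chronic), or chronically while MEK, a kinase below RAS, was inhibited (ChronicMEKi, called MEK-inhibited here), with 3 libraries in each of the 3 groups. Strain, age, sex, genotype, the stimulus, its duration, the inhibitor and its dose are not stated in the labels, and the control wells that received actinomycin D are not among the 9 libraries. The series' design text places the comparison in the study of T cell exhaustion, a state of reduced function after lasting stimulation. Nothing in the labels says that the libraries of a group came from separate animals or cultures, so p-values measure only the spread between these libraries, which may be technical. In bulk RNA of this kind, fewer cells of a type and less new RNA per cell cannot be told apart.

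RAS is a molecular switch that is on when it holds GTP. In a T cell, engagement of the antigen receptor activates phospholipase C gamma, which makes diacylglycerol, and diacylglycerol recruits the protein of Rasgrp1 to the membrane, where it loads RAS with GTP. SOS1 reaches the same membrane through the adaptors GRB2 and LAT, diacylglycerol kinases convert diacylglycerol to phosphatidic acid, and GTPase-activating proteins speed the hydrolysis of the bound GTP. CBL-B attaches ubiquitin to proteins of the receptor complex and is a known brake on T cell activation, and RAS itself feeds the RAF, MEK and ERK kinases.

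The values are signal summed over each transcript's gene body, or over its pause region near the start site, after scaling between libraries. Their depth in reads is unknown, and each library's signal summed over 1 row per gene was 4.86e+07 to 5.22e+07 in the gene-body table. The CD8 T cell markers fixed for the check (Cd3e, Cd3d, Cd3g, Cd8a, Cd8b1, Cd2, Trac) passed the filter in 7 of 7 cases. Their summed signal was 17241 to 19320 in the acute, 11502 to 12346 in the chronic and 14668 to 16537 in the MEK-inhibited libraries. It was thus lowest in the chronic group, as was the signal of Rasgrp1, and its part in the results was not tested. The B cell markers Cd79b and Ms4a1 stayed below a signal of 50 in all libraries, and Cd4 lay between 101 and 496, highest in the acute group. A fixed list of 13 genes known to follow ERK activity served as a check of the inhibitor. Between the MEK-inhibited and the chronic libraries, 11 of them were called lower and 0 higher (limma, adjusted p under 0.05). Of all genes tested, 7.65% were called lower and 9.93% higher there. The median log2 difference of the list was -1.79, against 0.04 over all genes tested. Dusp6, which encodes a phosphatase of ERK, fell by 3.52 on the log2 scale (adjusted p = 5.23e-12), Etv5 fell by 3.80, and Spry2 fell by 1.43.

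Most of the 10 genes differed in each comparison, and most of the differences were decreases. Of the 10 genes, 8 were called between chronic and acute libraries (limma on log2 signal, adjusted p under 0.05), 3 higher and 5 lower, where 33.9% of the 15942 genes tested were called, 18% higher and 15.9% lower. Between MEK-inhibited and chronic libraries 7 were called, 1 higher and 6 lower, against 17.6% of all genes, 9.93% higher and 7.65% lower. The comparison of MEK-inhibited with acute libraries called 8, of which 1 was higher and 7 were lower, against 25.8% of all genes, 14.4% higher and 11.5% lower. Calls were more frequent among strong genes. Among the 3895 genes whose mean signal reached 2000, to which the 10 belong, the called shares were 50.8%, 31.2% and 42.1%. The median log2 difference of the 10 genes was -0.43, -0.39 and -0.58 in these comparisons, beside -0.02, 0.04 and 0.00 over all genes tested. The groups did not overlap for 8, 8 and 9 of the 10 genes, against 44.2%, 32.2% and 42% of all genes. The comparisons share libraries, so opposite signs in the first and second are not independent of each other.

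The scaling mattered to the split of directions. Scaling to library totals shifted the median of all genes by -0.48, 0.10 and -0.38 on the log2 scale, relative to the trimmed mean used here. With library totals the calls among the 10 became 1 higher and 7 lower between chronic and acute libraries, 1 higher and 4 lower between MEK-inhibited and chronic ones, and 0 higher and 7 lower between MEK-inhibited and acute ones. The same splits were found on the deposited scale. Differences below are relative to the trimmed mean.

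**Figure D1:**
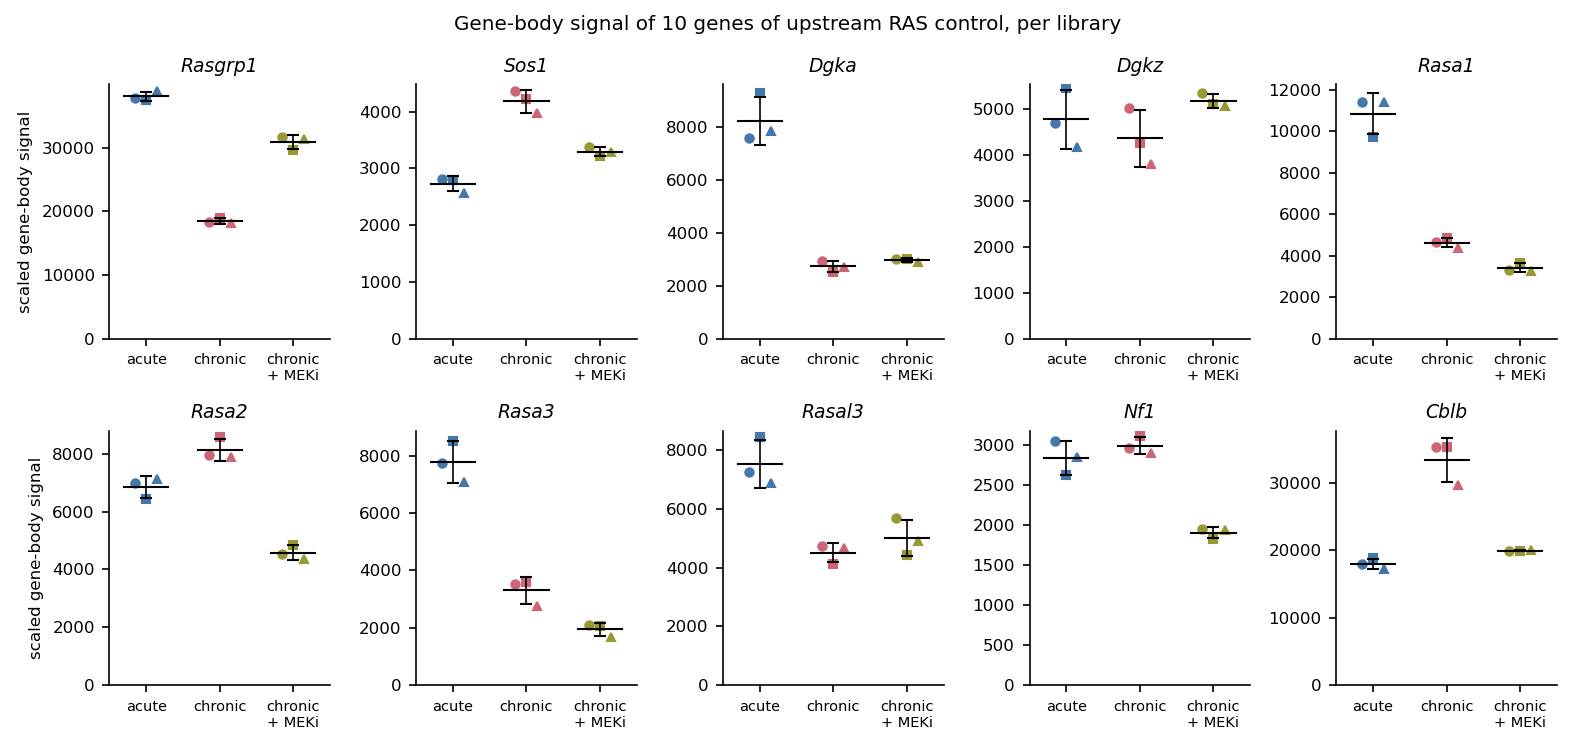
Scaled gene-body signal of the 10 genes in each library, 1 panel per gene, with the vertical axis starting at 0. Points are single libraries, with the marker shape giving the replicate number, and the bars are the mean and SD of 3 libraries. Rasgrp1 was lowest and Cblb highest in the chronic group, while Rasa1 and Rasa3 stepped down from acute to chronic to MEK-inhibited libraries.

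The signal near the start sites was called different at Rasgrp1, Dgka and Rasa1 among others, and stretches upstream of the RefSeq start sites of these genes are shown for context. The Rasgrp1 and Dgka stretches adjoin the starts of Rasgrp1-201 and, within 1 base, Dgka-201, while the Rasa1 stretch lies upstream of a RefSeq start at chr13:85289486, farther out than the start of Rasa1-201 (chr13:85289029). The sequences are from RefSeq (GRCm38.p6), which had promoter entries for 10 of the 10 genes, and are all on the minus strand, written 5′ to 3′. Only the part of the 250 upstream bases that lies outside annotated exons is printed. Capitals mark matches, on either strand, to the letters GGGCGG (GC box, the motif of SP-family factors) or CCGGAAG (ETS motif).
Rasgrp1 (chr2:117343002-117343127): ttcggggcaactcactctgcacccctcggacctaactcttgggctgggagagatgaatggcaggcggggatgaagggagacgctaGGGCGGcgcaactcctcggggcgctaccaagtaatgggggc
Dgka (chr10:128744077-128744326): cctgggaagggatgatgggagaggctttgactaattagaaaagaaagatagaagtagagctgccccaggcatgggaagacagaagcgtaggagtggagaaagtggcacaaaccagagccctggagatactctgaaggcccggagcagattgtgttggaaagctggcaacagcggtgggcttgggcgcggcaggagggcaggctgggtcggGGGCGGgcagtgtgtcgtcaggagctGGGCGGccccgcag
Rasa1 (chr13:85289487-85289736): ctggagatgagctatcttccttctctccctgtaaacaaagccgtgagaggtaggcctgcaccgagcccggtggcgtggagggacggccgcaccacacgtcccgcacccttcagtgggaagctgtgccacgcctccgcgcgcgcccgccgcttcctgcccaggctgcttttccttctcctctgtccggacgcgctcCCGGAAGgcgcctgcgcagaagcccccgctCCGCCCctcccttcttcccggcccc

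Rasgrp1's stretch held 1 GC box, Dgka's held 2, and Rasa1's held 1 GC box and 1 ETS match. Among 32536 RefSeq upstream windows of 250 bases, 33% held GGGCGG and 6.95% held CCGGAAG. The other motifs searched were TGANTCA (AP-1, in 6.73% of windows), GCGTGGGCG (EGR, 0.541%), TGACGTCA (CRE, 1.56%) and CACGTG (E-box, 6.04%), of which GCGTGGGCG shares letters with GGGCGG and can overlap it. None of these 4 was found in the 3 stretches. Dgka has further RefSeq starts, whose stretches are not printed. The one upstream of chr10:128737612 held 2 GC boxes and 1 E-box match, and the one upstream of chr10:128745084 held none of the motifs. That of the start at chr10:128743878 overlaps the printed stretch and held its 2 GC boxes. A match is a description of the letters, not a bound site.

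Rasgrp1, whose product is the diacylglycerol-dependent RAS activator of lymphocytes, had its lowest signal in the chronic libraries. Its row is transcript Rasgrp1-201 (chr2:117279993-117343001, minus strand, 17 exons), which overlaps no other annotated gene. The signal was 37867, 37458 and 38881 in the acute libraries, 18289.8, 18949 and 18085 in the chronic ones, and 31603, 29686 and 31385 in the MEK-inhibited ones. The groups did not overlap in any comparison, with the chronic libraries lowest and the MEK-inhibited ones between. Rasgrp1 fell by 1.05 on the log2 scale from acute to chronic libraries (SE 0.076, adjusted p = 4.48e-09), to 48.4% of the acute level. It was higher by 0.74 in MEK-inhibited than in chronic libraries (SE 0.076, adjusted p = 9.91e-07). The MEK-inhibited level remained below the acute one, at 81.1% of it (log2 difference -0.30, adjusted p = 0.00606), a call that was lost when no filter was applied. Rasgrp1 was the sole gene of the 10 that was called higher in MEK-inhibited than in chronic libraries. Its log2 difference there was above that of 91.4% of the genes tested.

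Sos1, the exchange factor that is brought to the receptor by GRB2, had the reverse order. Its row (chr17:80393751-80479969, minus strand, 22 exons) overlaps the end of Arhgef33 on the opposite strand, whose own signal was 8.68% to 12.5% of that of Sos1. Arhgef33 differed by 1.11 between chronic and acute (adjusted p = 0.000795) and by -0.67 between MEK-inhibited and chronic libraries (adjusted p = 0.0480). These are the signs of Sos1, and the part of Arhgef33 in the Sos1 differences was not tested. The signal of Sos1 was 2817, 2798 and 2572 in the acute libraries, 4365, 4219.7 and 3966 in the chronic ones, and 3369, 3218 and 3286 in the MEK-inhibited ones. The 3 groups were fully separate, in the order acute, MEK-inhibited, chronic. Sos1 was higher by 0.62 in chronic than in acute libraries (SE 0.090, adjusted p = 3.25e-05) and lower by 0.34 in MEK-inhibited than in chronic ones (a log2 difference of -0.34, adjusted p = 0.0116). Both calls were lost under scaling to library totals, where the differences were 0.13 and -0.24, and on the deposited scale (0.14 and -0.21). The second was also lost with no filter (-0.38). The difference of 0.27 between MEK-inhibited and acute libraries (adjusted p = 0.0344) became -0.11 with library totals and was not called without any 1 of the acute or MEK-inhibited libraries (0.17 to 0.27). That call was also lost with no filter (0.28) and with totals that leave out ribosomal RNA-like rows (0.10). The same held with median-of-ratios scaling (0.25) and without trend and robust moderation (0.27).

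Dgka encodes diacylglycerol kinase alpha, which ends the diacylglycerol signal that Rasgrp1 reads and is known to be abundant in resting and anergic T cells. Its strongest row is Dgka-203 (chr10:128720136-128744855, minus strand, 24 exons), annotated as a target of nonsense-mediated decay. Dgka-201 covers nearly the same stretch, and Dgka-202 is a short retained-intron transcript inside it. Pmel overlaps its end on the opposite strand, with a signal of 1.70% of that of Dgka in the acute and 13% in the MEK-inhibited libraries. Dgka's signal was 7578, 9273 and 7861 in the acute libraries, 2934, 2535 and 2717 in the chronic ones, and 3008, 2991 and 2881 in the MEK-inhibited ones. All acute libraries lay far above the others, and the chronic and MEK-inhibited libraries overlapped. Dgka fell by 1.59 on the log2 scale from acute to chronic libraries (SE 0.098, adjusted p = 5.39e-10), to 33.2% of the acute level. The difference between MEK-inhibited and chronic libraries was 0.12, with a 95% interval of -0.09 to 0.33 (adjusted p = 0.481). MEK-inhibited libraries were at 36.1% of the acute level (log2 difference -1.47, adjusted p = 3.88e-09). All 3 Dgka transcript rows, which overlap and are not independent of each other, gave the same calls. Their log2 differences were -1.59 to -1.51 between chronic and acute libraries, where 15.5% of the 64735 distinct transcript rows tested were called lower.

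Dgkz encodes diacylglycerol kinase zeta, the other main diacylglycerol kinase of T cells. Its row is Dgkz-202 (chr2:91932824-91975864, minus strand, 31 exons). Gm9821, on the opposite strand inside it, had 5.34% to 6.37% of its signal. Dgkz had 4692, 5438 and 4169 in the acute libraries, 5020.0, 4249 and 3792 in the chronic ones, and 5340.5, 5108 and 5055 in the MEK-inhibited ones. Acute and chronic libraries overlapped, and the MEK-inhibited libraries lay just above all chronic ones. No comparison was called, with log2 differences of -0.13 (95% interval -0.37 to 0.11, adjusted p = 0.393) between chronic and acute, 0.26 (0.02 to 0.49, adjusted p = 0.137) between MEK-inhibited and chronic, and 0.12 (-0.11 to 0.36, adjusted p = 0.467) between MEK-inhibited and acute libraries. The first was called under library totals, at -0.62, and the second without the first chronic library, at 0.36.

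The balance of the exchange factor to the kinases was read as a log2 ratio within each library, which no scaling between libraries can move. The ratios are of signal summed over rows of different length, so only their differences between libraries are read, not their level or sign. Rasgrp1 to Dgka was 2.32, 2.01 and 2.31 in the acute libraries, 2.64, 2.90 and 2.73 in the chronic ones, and 3.39, 3.31 and 3.44 in the MEK-inhibited ones, so the 3 groups were separate and in that order. Rasgrp1 to Dgkz had means of 3.0 ± 0.22, 2.09 ± 0.20 and 2.58 ± 0.05 (SD, n = 3 each), lowest in the chronic libraries. Dgka to Dgkz was highest in the acute libraries, with means of 0.79 ± 0.11 in acute, -0.67 ± 0.16 in chronic and -0.80 ± 0.03 in MEK-inhibited libraries (SD, n = 3 each). With 3 libraries against 3 an exact two-sided permutation test cannot go below 0.1. It gave 0.1 in 8 of the 9 comparisons of ratios (0.1125 after adjustment over the 9) and 0.2 for Dgka to Dgkz between MEK-inhibited and chronic libraries.

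**Figure D2:**
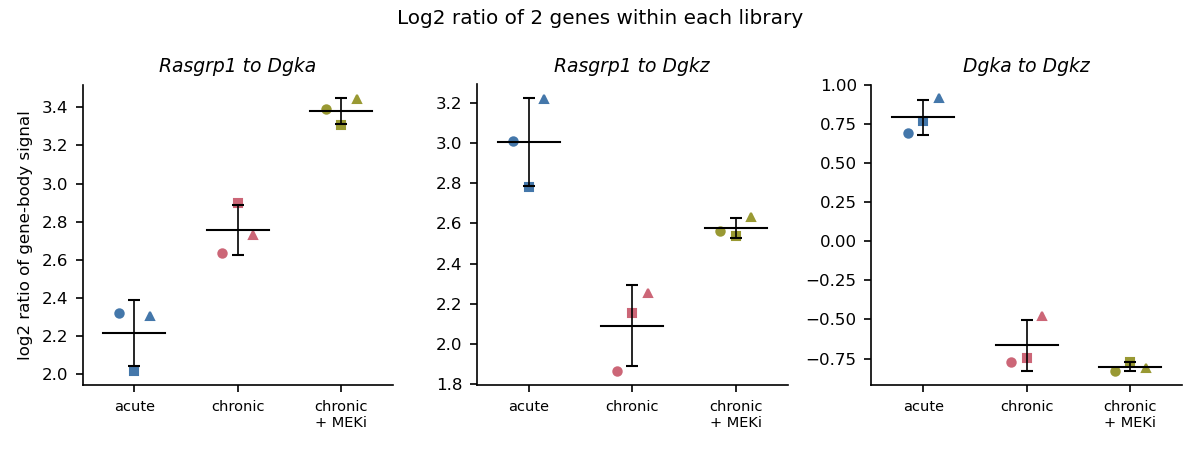
Log2 ratio of the gene-body signal of 2 genes within each library, for Rasgrp1 to Dgka, Rasgrp1 to Dgkz and Dgka to Dgkz. Points are libraries and bars are the mean and SD of 3. Rasgrp1 to Dgka stepped up from a mean of 2.21 to 2.76 to 3.38, while Dgka to Dgkz was lower in every chronic and MEK-inhibited library than in every acute one.

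Among the GTPase-activating proteins, Rasa1 and Rasa3 fell in each of the 3 comparisons, Rasal3 fell in both comparisons with the acute libraries, and Rasa2 and Nf1 differed mainly with the inhibitor. Rasa1 encodes p120 RasGAP, which binds phosphorylated receptors and adaptors through its SH2 domains. Its row (chr13:85214780-85289029, minus strand, 25 exons) overlaps the end of Ccnh on the opposite strand. Rasa1's signal was 11405, 9710.4 and 11419 in the acute libraries, 4639, 4852 and 4391 in the chronic ones, and 3307, 3656 and 3262 in the MEK-inhibited ones. The groups were separate, in that descending order. The log2 difference was -1.23 (adjusted p = 9.21e-09) between chronic and acute libraries and -0.44 (adjusted p = 0.00229) between MEK-inhibited and chronic ones, the second a call that was lost with library totals, at -0.33. MEK-inhibited libraries were at 31.5% of the acute level. Ccnh had 20.6% to 25.4% of Rasa1's signal and fell by 1.14 from acute to chronic libraries (adjusted p = 1.53e-06), and its part in the Rasa1 difference was not tested.

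Rasa3 encodes a GTPase-activating protein for RAS and RAP and fell the most of the 10 between MEK-inhibited and acute libraries. Its row (chr8:13566948-13677603, minus strand, 24 exons) overlaps no other gene. The signal was 7741, 8528 and 7073 in the acute libraries, 3532, 3598 and 2773 in the chronic ones, and 2108, 2049 and 1684 in the MEK-inhibited ones. No group overlapped another. Rasa3 fell by 1.24 from acute to chronic libraries (SE 0.119, adjusted p = 1.87e-07) and by a further 0.76 from chronic to MEK-inhibited ones (adjusted p = 0.000146). MEK-inhibited libraries held 25.0% of the acute signal (log2 difference -2.0, adjusted p = 1.03e-09).

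Rasa2, a relative of Rasa3, was lowest with the inhibitor. Its row (chr9:96539300-96631617, minus strand, 24 exons) had 7000.0, 6432 and 7134 in the acute libraries, 7958, 8579 and 7884 in the chronic ones, and 4523, 4859 and 4357 in the MEK-inhibited ones. The MEK-inhibited libraries lay below all others. Rasa2 fell by 0.83 on the log2 scale from chronic to MEK-inhibited libraries (SE 0.086, adjusted p = 1.32e-06). All 6 of its transcript rows were called lower there (6.78% of all rows), but they lie within 1 stretch and are not independent of each other. Against the acute libraries the difference was -0.58 (adjusted p = 5.48e-05). The chronic libraries were above the acute ones by 0.25 (adjusted p = 0.0336), but this became -0.24 with library totals and -0.23 on the deposited scale. It was not called without the first acute (0.26), the second acute (0.21) or the second chronic library (0.21). The call was also lost with no filter (0.30) and with totals that leave out ribosomal RNA-like rows (0.09). The same held without trend and robust moderation (0.25) and with only the 2 groups compared (0.24).

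Rasal3 encodes a GTPase-activating protein found mainly in blood cells. Its row (chr17:32390659-32403583, minus strand, 17 exons) overlaps the antisense gene CT485616.1, whose signal was 69.6% to 75.5% of that of Rasal3 and differed alike (a log2 difference of -0.84 between chronic and acute libraries, adjusted p = 3.50e-06). As the use of strand in counting is not given in the sources used here, the signal of these 2 genes cannot be told apart. Rasal3 had 7257, 8447 and 6884 in the acute libraries, 4749, 4139 and 4662 in the chronic ones, and 5689.7, 4446 and 4905 in the MEK-inhibited ones. The acute libraries were above all others, and the rest overlapped. The log2 difference was -0.73 (adjusted p = 2.97e-05) between chronic and acute, 0.15 (95% interval -0.08 to 0.37, adjusted p = 0.418) between MEK-inhibited and chronic, and -0.59 (adjusted p = 0.000429) between MEK-inhibited and acute libraries.

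Nf1 encodes neurofibromin, a large GTPase-activating protein, and had the weakest signal per length of the 10. Its row (chr11:79339825-79581612, plus strand, 58 exons) contains Evi2, Evi2a, Evi2b and Omg on the opposite strand. The signal was 3044, 2621 and 2852 in the acute libraries, 2967, 3111 and 2904 in the chronic ones, and 1949.7, 1823 and 1938 in the MEK-inhibited ones. Acute and chronic libraries overlapped, and the MEK-inhibited libraries were below both. The log2 difference was 0.08 (adjusted p = 0.571) between chronic and acute, -0.65 (adjusted p = 8.84e-05) between MEK-inhibited and chronic, and -0.57 (adjusted p = 0.000231) between MEK-inhibited and acute libraries. The first was called lower with library totals, at -0.41 (adjusted p = 0.0155), and on the deposited scale, at -0.39 (adjusted p = 0.0176).

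The Nf1 row spans a second gene with a strong signal, and as the use of strand is not given, whether the Nf1 values include it was not tested. Nf1-209 (119 kb) and Nf1-206 (33.7 kb) cover the first and last part of the locus and do not reach Evi2. The row less these transcripts held 2096 ± 152 in acute, 1992 ± 91.9 in chronic and 1182 ± 94.3 in MEK-inhibited libraries (SD, n = 3 each). Nf1-206 held 142 ± 5.83, 205 ± 33.7 and 135 ± 20 in the same order (SD, n = 3 each). The row of Evi2 (chr11:79513385-79530559) held 1750 ± 114, 1450 ± 125 and 922 ± 37.4 in acute, chronic and MEK-inhibited libraries (SD, n = 3 each), equal to 61.6%, 48.4% and 48.4% of the Nf1 signal, from a stretch that is a small part of the locus. Subtracting the Evi2 row from the Nf1 row, an alternative chosen after seeing the data, left 1089.5 ± 114 in acute, 1544 ± 197 in chronic and 982 ± 32.8 in MEK-inhibited libraries (SD, n = 3 each). With it, Nf1 was called higher in chronic than in acute libraries, by 0.50 (SE 0.135, adjusted p = 0.00756). The fall from chronic to MEK-inhibited libraries remained, at -0.64 (adjusted p = 0.00211), and the difference from the acute libraries was no longer called, at -0.15 (adjusted p = 0.481). The subtraction together with library totals gave 0.01 (adjusted p = 0.969), -0.54 (adjusted p = 0.0271) and -0.53 (adjusted p = 0.0143), so the higher call in chronic libraries was absent there and the lower call against the acute libraries was present. Nf1-209, a transcript over the first part of the locus (chr11:79339792-79458906) that does not reach Evi2, had 602 ± 71.6, 797 ± 53.3 and 587 ± 41.3 (SD, n = 3 each). It gave log2 differences of the same signs as the subtraction, 0.41, -0.44 and -0.03, of which none was called among the transcript rows (adjusted p = 0.0578, 0.0675 and 0.915). Nf1-205, a retained-intron transcript that also ends before Evi2 (chr11:79339887-79430788), was called higher in chronic than in acute libraries (log2 difference 0.47, adjusted p = 0.0409), and its other differences were not called (-0.43, adjusted p = 0.102, and 0.05, adjusted p = 0.886).

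**Figure D3:**
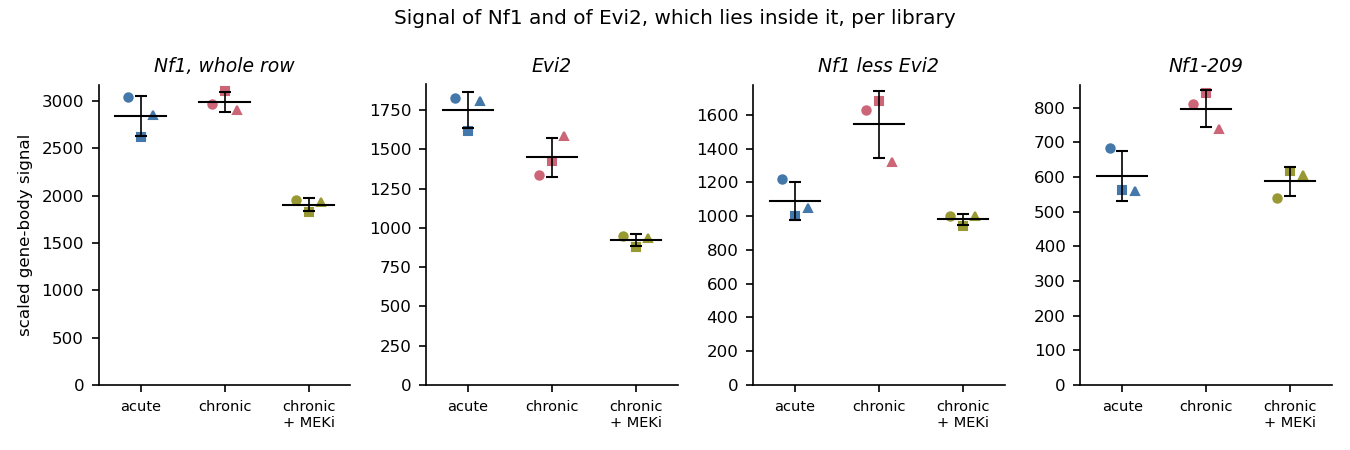
Scaled gene-body signal per library of the whole Nf1 row, of Evi2 inside it, of Nf1 after subtracting Evi2 (trimmed-mean scaling), and of transcript Nf1-209, which ends before Evi2. Points are libraries and bars are the mean and SD of 3. Evi2 descends from a mean of 1750 to 1450 to 922, and Nf1 without it is highest in the chronic libraries, at 1544.

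Cblb encodes the ubiquitin ligase CBL-B, which restrains signalling from the T cell receptor. Its row is Cblb-201 (chr16:52031225-52208048, plus strand, 18 exons), which contains the small nucleolar RNA gene Gm23513 on the opposite strand. The signal was 17937, 18812 and 17279.9 in the acute libraries, 35427, 35331 and 29685 in the chronic ones, and 19933, 19883 and 20013 in the MEK-inhibited ones. The chronic libraries were far above the others, and the MEK-inhibited libraries lay closely together, just above all acute ones. Cblb rose by 0.89 on the log2 scale from acute to chronic libraries (SE 0.085, adjusted p = 1.88e-07), to 185% of the acute level. It was lower by 0.74 in MEK-inhibited than in chronic libraries (a log2 difference of -0.74, adjusted p = 4.38e-06). Between MEK-inhibited and acute libraries the difference was 0.15, with a 95% interval of -0.03 to 0.33 (adjusted p = 0.230). It became -0.24 with library totals, and it was called, at 0.15 (adjusted p = 0.0402), without the third chronic library, which is in neither of the 2 groups. Of the 7 Cblb transcript rows, 7 were called higher in chronic than in acute libraries, against 16% of all rows. The other rows lie within the stretch of Cblb-201, so the 7 are not independent of each other.

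**Figure D4:**
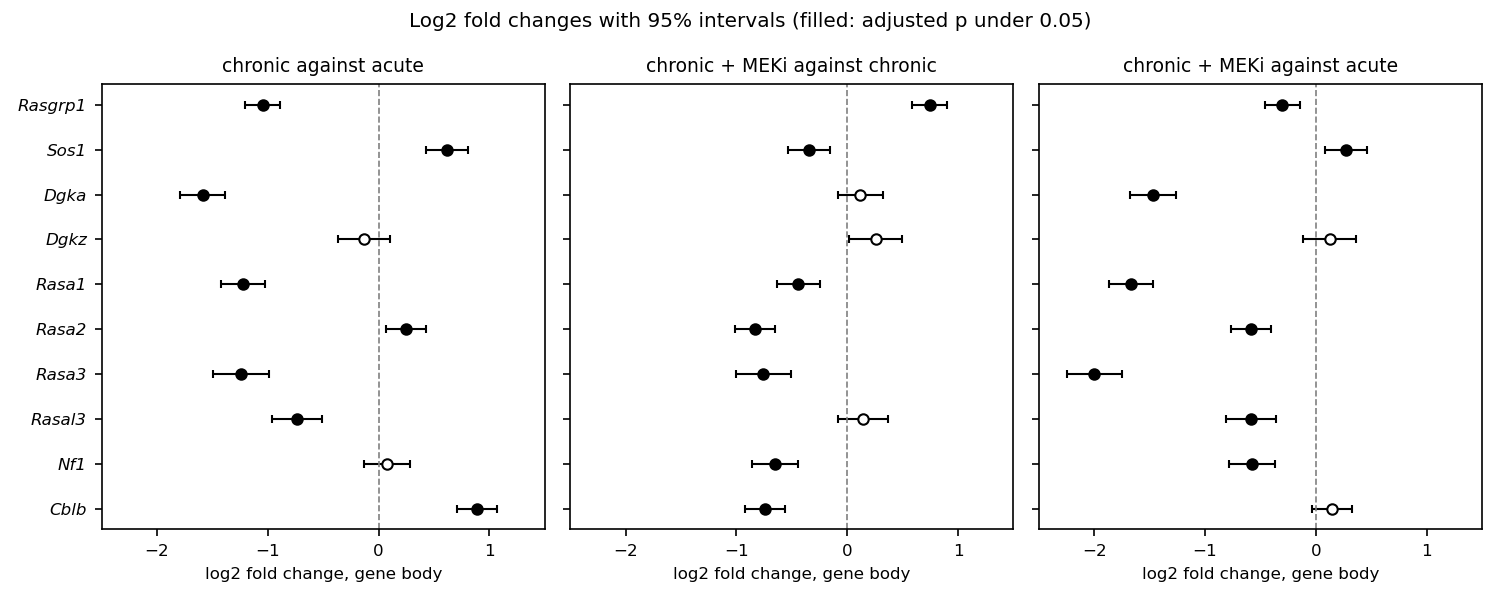
Log2 differences of gene-body signal for the 10 genes in the 3 comparisons, with 95% intervals from limma and filled points for adjusted p under 0.05. The chronic and acute comparison spans -1.59 (Dgka) to 0.89 (Cblb), and Rasgrp1, at 0.74, is the single gene called to the right of 0 between MEK-inhibited and chronic libraries. With library totals the chronic and acute difference of Rasa2 and of Nf1 and the MEK-inhibited and acute difference of Sos1, Dgkz and Cblb change sign.

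Between genes, levels can be compared only per length. On the scale of signal per kb of transcript span, the acute means ran from 604 ± 11.6 for Rasgrp1 and 583 ± 63.2 for Rasal3, whose ranges overlapped, through 333 ± 36.7 for Dgka, to 31.7 ± 1.59 for Sos1 and 11.7 ± 0.875 for Nf1 (SD, n = 3 each). Between them came Rasa1 at 146 ± 13.2, Dgkz at 111 ± 14.8, Cblb at 102 ± 4.35, Rasa2 at 74.3 ± 4.03 and Rasa3 at 70.3 ± 6.58 (SD, n = 3 each). The neighbours Dgkz and Cblb, and Rasa2 and Rasa3, were closer than their spreads. In the chronic libraries Cblb reached 189 ± 18.6 per kb, above Dgka at 110.4 ± 8.09 and Dgkz at 101 ± 14.4, and Rasal3 and Rasgrp1 led at 349 ± 25.5 and 293 ± 7.17 (SD, n = 3 each). In the MEK-inhibited libraries Rasgrp1, at 490.3 ± 16.7, was again above Rasal3, at 388 ± 48.7 (SD, n = 3 each). The signal of Rasal3 cannot be told apart from that of its antisense gene.

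The pause-region table, which holds the signal near each start, could be tested for 6 of the 10 genes. Between chronic and acute libraries 4 of the 6 were called, 0 higher and 4 lower, where 10.7% of the 7678 genes tested were called, 5.37% higher and 5.35% lower. Between MEK-inhibited and chronic libraries 1 was called, higher, against 3% of all genes (1.56% higher), and between MEK-inhibited and acute libraries 2 were called, both lower, against 5.95% (2.51% lower). The groups did not overlap for 4, 2 and 4 of the 6, against 24.3%, 20.2% and 24.7% of all genes. The number called between MEK-inhibited and acute libraries was 0 without the first acute library. Between MEK-inhibited and chronic libraries the number called was 2 without the third chronic library. Sos1 and Nf1 stayed under the filter, with means of at most 30.8 in any group.

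At the start of Rasgrp1-201, beside the stretch printed above, the signal was 819, 849 and 595 in the acute libraries, 371, 383 and 303 in the chronic ones, and 732, 774 and 754 in the MEK-inhibited ones. The chronic libraries lay below all others, and the acute and MEK-inhibited libraries overlapped. The log2 difference was -1.08 (SE 0.193, adjusted p = 0.000263) between chronic and acute and 1.09 (adjusted p = 0.000645) between MEK-inhibited and chronic libraries. For MEK-inhibited against acute libraries it was 0.02, with a 95% interval of -0.38 to 0.41 (adjusted p = 0.981). The 4 distinct pause-region rows of Rasgrp1, with starts between chr2:117342709 and 117343001, gave the same calls, lower between chronic and acute libraries (6.85% of all 26285 pause-region rows tested) and higher between MEK-inhibited and chronic ones (1.37%). These starts lie close together, so the rows are not independent of each other.

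At Dgka the row of the transcript Dgka-201, which starts at chr10:128744075 just below its printed stretch, had the clearest signal. It was 286, 236 and 235 in the acute libraries, 56.5, 43.2 and 62.4 in the chronic ones, and 107, 97.5 and 113 in the MEK-inhibited ones, so the groups were separate with the chronic libraries lowest. The log2 difference was -2.13 (adjusted p = 1.95e-05) between chronic and acute, 0.92 (adjusted p = 0.142) between MEK-inhibited and chronic, and -1.21 (adjusted p = 0.0188) between MEK-inhibited and acute libraries. The row of Dgka-203, which stands for the gene in the counts above, was weaker, with means of 109.7 ± 36.2, 32.8 ± 14.3 and 31.5 ± 20 (SD, n = 3 each). Its call between MEK-inhibited and acute libraries (log2 difference -1.73, adjusted p = 0.0385) had the same sign but was lost under 10 alternatives, among them a pseudocount of 0.5 or 1, no filter, and leaving out acute replicate 1 or 3 or MEK-inhibited replicate 2 or 3 (-1.75 to -1.49 without 1 of these libraries). Its lower call between chronic and acute libraries, 1 of the 4 above, was lost with no filter (-1.65) and when replicate 1 or 3 of either group was left out (-1.68 to -1.31).

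At the start of Rasa1-201 the signal was 149, 199 and 211 in the acute libraries, 29.3, 43.2 and 84.5 in the chronic ones, and 94.8, 125 and 119 in the MEK-inhibited ones. The groups did not overlap, again with the chronic libraries lowest, which was not the order of the gene body. The log2 difference was -1.84 (adjusted p = 0.00068) between chronic and acute and 1.15 (95% interval 0.41 to 1.88, adjusted p = 0.0818) between MEK-inhibited and chronic libraries. The gene body of Rasa1 had the opposite sign in the latter comparison, -0.44. The difference between pause region and gene body, tested in its own model, was 1.59 (95% interval 0.73 to 2.45) and was not called (adjusted p = 0.726).

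Rasal3-201 had 697, 325 and 473 at its start in the acute libraries, 166, 267 and 161 in the chronic ones, and 194, 251 and 232 in the MEK-inhibited ones. It was called lower in chronic than in acute libraries (log2 difference -1.28, adjusted p = 0.00132) and in MEK-inhibited than in acute ones (-1.07, adjusted p = 0.0125). The second call was lost with no filter (-1.07) and in limma without trend and robust moderation (-1.07). It was also lost without the first acute (-0.80) or the first MEK-inhibited library (-0.96). The start of Rasal3-201 lies inside the antisense gene CT485616.1. The rows that stand for Rasa2 and Rasa3 were not called in any pause-region comparison, with log2 differences of -1.32 to -0.26. Other Rasa3 rows were called lower: Rasa3-205 between chronic and acute (-2.11, adjusted p = 0.0244) and between MEK-inhibited and acute libraries (-2.30, adjusted p = 0.0235), and Rasa3-203, which shares its values with Rasa3-206, in the latter (-1.63, adjusted p = 0.0172). At Cblb the row of Cblb-201 stood apart from the other rows near the annotated start. Cblb-201 was at most 6.53 in any library, while Cblb-203, which starts at chr16:52031606, had 222, 231 and 174 in the acute libraries, 517, 448 and 372 in the chronic ones, and 254, 333 and 237 in the MEK-inhibited ones. The chronic libraries lay above all others. Cblb-203 was called higher in chronic than in acute libraries, by 1.07 (adjusted p = 0.00218), and the other differences were not called (-0.69, adjusted p = 0.132, between MEK-inhibited and chronic, and 0.38, adjusted p = 0.372, between MEK-inhibited and acute libraries). Cblb-202 shares its values, and Cblb-204 (1.08, adjusted p = 0.00239) and Cblb-206 (1.16, adjusted p = 0.00465) were called higher in chronic than in acute libraries too. Dgkz-202 was listed at 0 in all libraries, and of the 8 distinct Dgkz pause-region rows tested, 1 was called in any comparison, Dgkz-204, lower in chronic than in acute libraries (log2 difference -1.13, adjusted p = 0.0428).

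**Figure D5:**
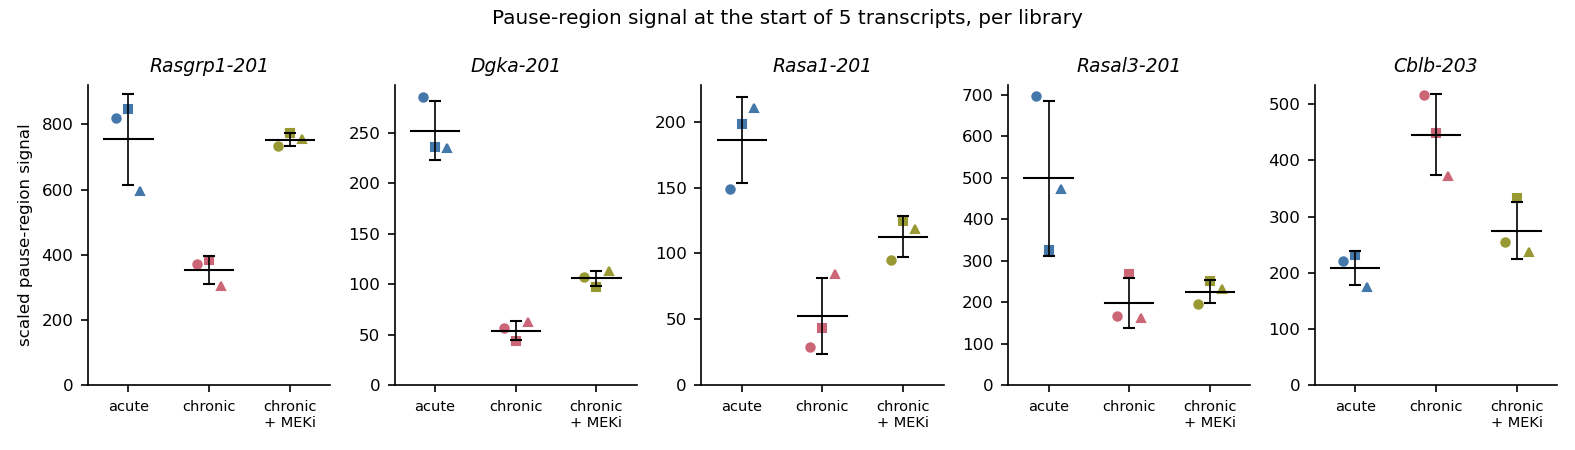
Scaled pause-region signal at the start of 5 transcripts in each library, with the vertical axis starting at 0. Points are libraries and bars are the mean and SD of 3. Rasgrp1-201, Dgka-201 and Rasa1-201 are lowest in the chronic libraries and Cblb-203 is highest there, with means of 352, 54.0, 52.3 and 446.

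Whether the signal near the start changed by more or less than the gene body was tested as the difference of the 2 log2 values. Of the 6 genes, 0 were called by limma in each comparison, as were 0% of the 7413 genes tested. At an unadjusted p under 0.05 there were 0, 1 and 1 of the 6 in the 3 comparisons, and 749, 394 and 591 of all genes.

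The rest of the pathway was described with 6 fixed lists of other genes, whose counts stand beside the shares of all genes called given above (33.9%, 17.6% and 25.8%, or 50.8%, 31.2% and 42.1% of strong genes). Of 5 RAS genes tested, Rras2, a RAS-related gene of lymphocytes, was the sole one called between chronic and acute libraries, at -1.38 (adjusted p = 3.44e-07). Its signal was 23445 ± 1137 in acute, 9168 ± 2017 in chronic and 15229 ± 998 in MEK-inhibited libraries (SD, n = 3 each). It was higher in MEK-inhibited than in chronic libraries by 0.76 (adjusted p = 0.000442) and had -0.62 (adjusted p = 0.00161) between MEK-inhibited and acute ones. Hras was higher in MEK-inhibited than in acute libraries by 0.84 (adjusted p = 0.0297). Rras2 overlaps another gene on the opposite strand. With library totals, 3 of the 5 were called lower between chronic and acute libraries.

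Of 5 other exchange factors tested, 3 fell (Rasgrp2, Rasgrp4, Rasgrf2) and 0 rose between chronic and acute libraries, with a list median of -1.13 against -0.02 over all genes, of which 33.9% were called. Rasgrp2, an exchange factor mainly for RAP, went from 2104 ± 507 in acute to 314 ± 104 in chronic and 1927 ± 459 in MEK-inhibited libraries (SD, n = 3 each). Its log2 difference was -2.76 (adjusted p = 3.05e-06) and then 2.63 (adjusted p = 1.04e-05), the same signs as for Rasgrp1 in both comparisons. Rasgrp4 had -2.40 and 1.39 in these comparisons, and these 2 were the exchange factors that rose between MEK-inhibited and chronic libraries, where 0 fell. Rasgrp2 and Rasgrp4 each overlap another gene on the opposite strand. Against the acute libraries 0 rose and 2 fell in the MEK-inhibited ones, Rasgrp4 and Rasgrf2 (-1.17, adjusted p = 0.00304).

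Of 7 other diacylglycerol kinases tested, 1 rose (Dgke) and 1 fell (Dgkd) between chronic and acute libraries, 2 rose (Dgkd, Dgkh) and 0 fell between MEK-inhibited and chronic ones, and 2 rose (Dgkh, Dgkq) and 1 fell (Dgkd) between MEK-inhibited and acute ones. The 2, 2 and 3 of 7 called stand beside 33.9%, 17.6% and 25.8% of all genes tested. Dgkh, the gene of diacylglycerol kinase eta, had 1005 ± 69.3 in acute, 959 ± 80.5 in chronic and 1689 ± 129 in MEK-inhibited libraries (SD, n = 3 each), and it overlaps other genes. The call of Dgkd between MEK-inhibited and chronic libraries lay at the threshold (0.27 on the log2 scale). The list medians were -0.27, 0.24 and -0.26. Library totals changed the first count to 0 higher and 3 lower, the second to 1 higher and 0 lower, and the third to 0 higher and 1 lower.

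Among the other GTPase-activating proteins and NF1 partners, Rasa4 fell by 1.60 between acute and chronic libraries (adjusted p = 5.54e-05) and rose by 1.68 between chronic and MEK-inhibited ones (adjusted p = 7.13e-05). Dab2ip, the gene of another GTPase-activating protein, had 369 ± 134 in acute, 948 ± 172 in chronic and 427 ± 114 in MEK-inhibited libraries (SD, n = 3 each). It rose by 1.39 between acute and chronic libraries (adjusted p = 0.0002) and fell by 1.16 between chronic and MEK-inhibited ones (adjusted p = 0.00216). Spred1, whose product brings neurofibromin to the membrane, fell by 2.58 between chronic and MEK-inhibited libraries, from 1927 ± 237 to 319 ± 57.9 (SD, n = 3 each, adjusted p = 3.07e-09), the same direction as Nf1. Between MEK-inhibited and acute libraries Spred1 had -2.45 (adjusted p = 4.40e-09) and Spred2 had -0.45 (adjusted p = 0.0231). Rasa4 overlaps other genes on both strands, and Dab2ip overlaps another gene on the opposite strand.

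Of 12 adaptors, kinases and phospholipases between the receptor and RAS, 1 rose and 7 fell between chronic and acute libraries, with a list median of -0.38, where 33.9% of all genes and 50.8% of strong genes were called. The riser was Lcp2, the gene of the adaptor SLP-76, at 0.46 (adjusted p = 0.000203), a call that library totals did not give. Among the others, Lat, the membrane adaptor that holds GRB2 and SOS1, had 3988 ± 433 in acute, 1837 ± 330 in chronic and 2143 ± 365 in MEK-inhibited libraries (SD, n = 3 each). Its log2 difference was -1.13 (adjusted p = 7.87e-06) between chronic and acute libraries. Plcg1, the phospholipase C gamma gene upstream of Rasgrp1, had log2 differences of -0.94 (adjusted p = 9.34e-07) between chronic and acute and 0.70 (adjusted p = 6.36e-05) between MEK-inhibited and chronic libraries. In the latter comparison Prkch rose too, and Lcp2 fell by 1.46 (adjusted p = 5.64e-10). Lat, Lcp2 and Plcg1 each overlap at least 1 other gene. Against the acute libraries 1 rose (Plcg2) and 6 fell in the MEK-inhibited ones. With library totals the 3 splits were 0 higher and 9 lower, 2 higher and 1 lower, and 0 higher and 9 lower.

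Of 10 genes tested for other CBL-type and anergy-associated ubiquitin ligases and their partners, 2 rose (Egr2, Nedd4) and 4 fell (Cbl, Nedd4l, Cd2ap, Peli1) between chronic and acute libraries, where 33.9% of all genes and 50.8% of strong genes were called. Cbl, the closest relative of Cblb, had a log2 difference of -0.67 there (adjusted p = 3.20e-06), opposite in sign to Cblb. Egr2, a transcription factor linked to anergy, rose by 3.52, from 176 ± 22.7 to 2075 ± 326 (SD, n = 3 each, adjusted p = 6.24e-10), and fell by 3.42 between chronic and MEK-inhibited libraries (adjusted p = 3.23e-09). Nedd4, a ubiquitin ligase gene, rose by 1.70 between acute and chronic libraries (adjusted p = 9.48e-11) and remained higher in MEK-inhibited than in acute ones by 1.02 (adjusted p = 1.47e-07). Against the chronic libraries, 2 rose in the MEK-inhibited ones (Cbl, Nedd4l) and 5 fell (Egr2, Nedd4, Ndfip1, Ubash3b, Peli1). Against the acute libraries 2 rose (Nedd4, Nedd4l) and 5 fell (Cbl, Ndfip1, Ubash3b, Cd2ap, Peli1), with Peli1 at -1.12 (adjusted p = 9.04e-09). Cbl, Nedd4 and Peli1 overlap other genes on their own strand. The median of the list was -0.12, -0.25 and -0.21 in the 3 comparisons.

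The genes with the pattern most like Rasgrp1 and Dgka were found by Pearson's r of log2 gene-body signal over the 9 libraries, among 7690 genes whose mean signal reached 500. Nearest to Rasgrp1 were Ifnar1, a subunit gene of the type I interferon receptor (r = 0.994), the ethanolamine kinase gene Etnk1 (r = 0.993) and the guanylate-binding protein gene Gbp6 (r = 0.993). Ifnar1 had 5755 ± 312 in acute, 1916 ± 85.6 in chronic and 4358 ± 272 in MEK-inhibited libraries (SD, n = 3 each). Nearest to Dgka were Setbp1, Mgat4a and Bach2os, an antisense gene at Bach2 (r = 0.994 each). Setbp1 had 8416 ± 437, 588 ± 68.5 and 767 ± 115 in the same order (SD, n = 3 each). With 3 groups, such values of r rest largely on the group means, and the points share libraries and their scaling.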

How the data were processed

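Nascent RNA was captured from 9 libraries of mouse CD8+ T cells, 3 each for acute, chronic and MEK-inhibited chronic stimulation, and read as pairs of 100 bases per the labels' protocols. Per the submitters' processing notes, the authors used FastQC 0.12.0, Trim Galore 0.6.10, STAR 2.7.0a, SAMtools 1.19.2, deepTools 0.1.9 and R 4.1.2 with the mm10 build; the counting step, the limits of the 2 regions and the use of strand are not given in the sources used here. The deposited values are scaled signal per transcript in a gene-body and a pause-region table, not read counts: nearly all low values are whole multiples of a step of 0.764 to 1.06 per library, and 4 steps were more frequent than 1. Depth in reads is therefore unknown.

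The 118482 rows were matched to GENCODE M21 (GRCm38) by transcript identifier, 117346 with their version and 383 without it; 753 were not matched, and matched rows lie on 19 chromosomes. Each of 37022 genes took its strongest row by mean gene-body signal. Genes that reached 50 in 3 or more libraries were kept. Scale factors were trimmed means of log ratios, unweighted (30% of ratios and 5% of levels trimmed at each end), and 1 model for all 9 libraries was fitted to log2(signal + 5) with limma 3.58.1 in R 4.3.3 (intensity trend, robust). Differences of weak genes are understated on that scale. Adjusted p-values are by Benjamini and Hochberg over all genes tested, called under 0.05, and those of transcript rows are from fits over 64735 gene-body and 26285 pause-region rows. Rows of the same gene often overlap and are not independent, so agreement between them is not replication. Joins used pandas 2.3.3 under Python 3.11.15, and the fits were tested on simulated data.

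The genes named are the 10 members, and, of 6 pathway lists, the 3 largest rises and falls per comparison among calls whose mean signal reached 100 in the higher group; Dusp6, Etv5 and Spry2 of the ERK list; and the 3 genes most like Rasgrp1 and Dgka. Other pathway and overlapping genes (such as Dab2ip, Lat, Plcg1, Ccnh, Evi2) were named after their values were seen. Some genes of the lists are not reported here. The members and lists were chosen with earlier results of these data known. Alternatives covered pseudocount, filter, scaling, model, row per gene, replicate block and leaving out each library.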

Additional observations from a re-analysis of the deposited data

How the results depend on the processing

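Of 666 gene-body values (the 10 genes under 22 alternatives, and Nf1 less Evi2 under both scalings), 620 kept their direction and their side of the threshold, 26 lost the call, 5 gained one and 15 changed sign. The number of genes called stayed at 7 to 9 (chronic against acute), 5 to 8 (MEK-inhibited against chronic) and 6 to 9 (MEK-inhibited against acute). Changes of sign concerned Rasa2 (-0.24 with library totals, -0.23 on the deposited scale) and Nf1 (-0.41, -0.39, and -0.0801 with totals that leave out ribosomal RNA-like rows) between chronic and acute libraries. Between MEK-inhibited and acute libraries they concerned, in the same order of scalings, Sos1 (-0.11, -0.0719), Dgkz (-0.26, -0.22, -0.0443) and Cblb (-0.24, -0.20, -0.0212). These scalings move the median of all genes, by -0.16 to -0.48 in those comparisons. Leaving out single libraries gave Dgkz -0.0255 (without the third acute) to 0.17 there, and Rasal3 -0.00681 (without the first MEK-inhibited) to 0.22 between MEK-inhibited and chronic libraries. In the pause region, Dgka between MEK-inhibited and chronic libraries was 0.11 with library totals, 0.0754 on the deposited scale, 0.94 with the row of largest pause-region signal and -0.52 to 0.17 without 1 library; Rasgrp1 between MEK-inhibited and acute libraries was -0.33 with library totals and -0.15 (without the third acute) to 0.0947 without 1 library. The cause of these changes was not tested.

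Pause-region counts were small and moved: chronic against acute 2 with a filter of 200 (fewer genes tested); MEK-inhibited against chronic 2 with library totals, 0 without trend and robust moderation, and 1 to 2 without 1 library; MEK-inhibited against acute 1 with a pseudocount of 0.5 or 1, a filter of 200, the deposited scale or totals without ribosomal RNA-like rows, 0 without a filter or without trend and robust moderation, and 0 to 2 without 1 library. With library totals, added after seeing the data, 3 of the RAS GTPases were called between chronic and acute libraries, 4 other exchange factors between MEK-inhibited and acute ones, and 1 other diacylglycerol kinase in each comparison of the MEK-inhibited group. Replicate numbers were not taken to pair the samples in the main model. Deviations of same-numbered libraries correlated at -0.53 to 0.098, and those of differently numbered ones at -0.37 to 0.51. Of the 9 libraries, 2 correlated best with their own number. With 3 libraries per group, these correlations cannot decide whether the samples were paired. With the replicate block the genes called were 8, 7 and 8 in the gene body, 4, 1 and 2 in the pause region and 0, 0 and 0 for the difference of both.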
